A study of Arabidopsis thaliana with 12 samples.

Results

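WRKY53, WRKY6, SAG101 and NOL are 4 Arabidopsis genes of leaf senescence and chlorophyll breakdown. They were chosen by name, by their locus codes AT4G23810, AT1G62300, AT5G14930 and AT5G04900, and each had 1 probe set of its own among the 22746 probe sets tested, of which 13513 are annotated to a single gene. All 4 probe sets were analysed, on all 12 arrays. The genes were proposed with earlier results of these data known, so the 4 are no independent sample of senescence genes.

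Leaf senescence is the ordered last phase of a leaf's life, in which chloroplasts are dismantled and nutrients are moved to growing parts. WRKY transcription factors bind W-box elements in promoters, and WRKY53 acts early in the onset of age-dependent senescence, while WRKY6 is linked to both senescence and defence. SAG101 encodes a lipase-like protein that was first described in senescing leaves and that works with EDS1 in plant immunity. NOL, with its partner NYC1, is a chlorophyll b reductase, the enzyme that starts the breakdown of chlorophyll b by turning it towards chlorophyll a.

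The study altered 2 steps of tetrapyrrole synthesis, the pathway that makes chlorophyll and heme, in green tissue of 3-week-old seedlings of ecotype Col-0, grown on soil with 10 h of light and 14 h of darkness at 23°C. CHLD, a subunit of magnesium chelatase, was reduced by an RNA interference (RNAi) construct that dexamethasone switches on, and CHLM, the methyltransferase of the following step, was overexpressed from a construct that estradiol switches on. Dexamethasone was sprayed at 20 µg/ml on the CHLD RNAi line and on a set of Col-0 controls. β-Estradiol was sprayed at 20 µM on the CHLM overexpression line and on another set of Col-0 controls. Each of these 4 groups held 3 arrays, labelled as biological replicates. No group was an inducible line left without its inducer, so the presence of a construct and its induction cannot be told apart. The sources used here do not give the promoter of either construct, the number of independent transformants behind a line or the time from spraying to harvest.

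The values were log signals, read as log2 since the base is not stated, with array medians between 6.26 and 6.32. CHLM was at 13.96 to 14.48 in its overexpression line and at 11.55 to 11.86 on the other 9 arrays, and CHLD was not analysed here. The plastid-encoded genes psbA and rbcL, which mark green tissue, were above the array median on all 12 arrays, at 9.51 to 10.63 and 9.04 to 9.96. Replicate 1 of Col-0 under estradiol was the least similar array within any group, with a Pearson correlation of 0.99 to the other arrays of that group over all probe sets, where every other pair within a group reached 0.994 to 0.997. Where a call on a gene named below changed without it, both values are given.

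WRKY53 rose in the CHLD RNAi line. The arrays of the line read 8.32, 8.33 and 8.12 on the log2 scale, against 7.30, 7.01 and 7.20 in Col-0 under dexamethasone. All 3 arrays of the line lay above all 3 of Col-0, with a gap wider than the range of either group. The means were 8.26 ± 0.12 and 7.17 ± 0.15 (SD, n = 3), a 2.12-fold rise (log2 difference 1.09, SE 0.16, limma adjusted p = 6.33e-04), with a 95% confidence interval of 1.67-fold to 2.69-fold. By size it was the 161st largest of 22746 differences, counted from the largest rise down. The call was kept with any 1 of the 12 arrays left out, at log2 differences of 1.01 to 1.16 and limma adjusted p up to 0.00571. Of the 4 genes 1 passed the threshold of an adjusted p under 0.05 in this comparison and 3 did not, where 12.4% of all probe sets passed. Likewise 1 of the 4 had groups that did not overlap, against 31.7% of all probe sets. In whole green tissue a change in the share of cells that express a gene and a change in the amount of RNA per cell cannot be told apart.

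WRKY53 also rose in the CHLM overexpression line, but this call rested on single arrays. The line was at 7.76, 7.87 and 8.11 on the log2 scale, against 6.87, 7.55 and 7.52 in Col-0 under estradiol. The groups did not overlap, but 1 Col-0 array lay well below the others and the highest, at 7.55, came near the lowest array of the line. The rise was 1.52-fold (log2 difference 0.60, SE 0.16, limma adjusted p = 0.0314), with a 95% interval of 0.26 to 0.94 for the log2 difference. It stood at place 296 of 22746 from the largest rise down. Without Col-0 estradiol replicate 1, the array at 6.87, the difference was 0.38 (SE 0.122, limma adjusted p = 0.0797) and the call was lost. Leaving out replicate 2 of the line (0.62, limma adjusted p = 0.0638), or its replicate 3 (0.50, limma adjusted p = 0.1), ended the call as well. Here too 1 of the 4 genes passed and 3 did not, where 9.75% of all probe sets passed. Groups without overlap were seen in 1 of the 4 genes and in 26.3% of all probe sets.

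**Figure D1:**
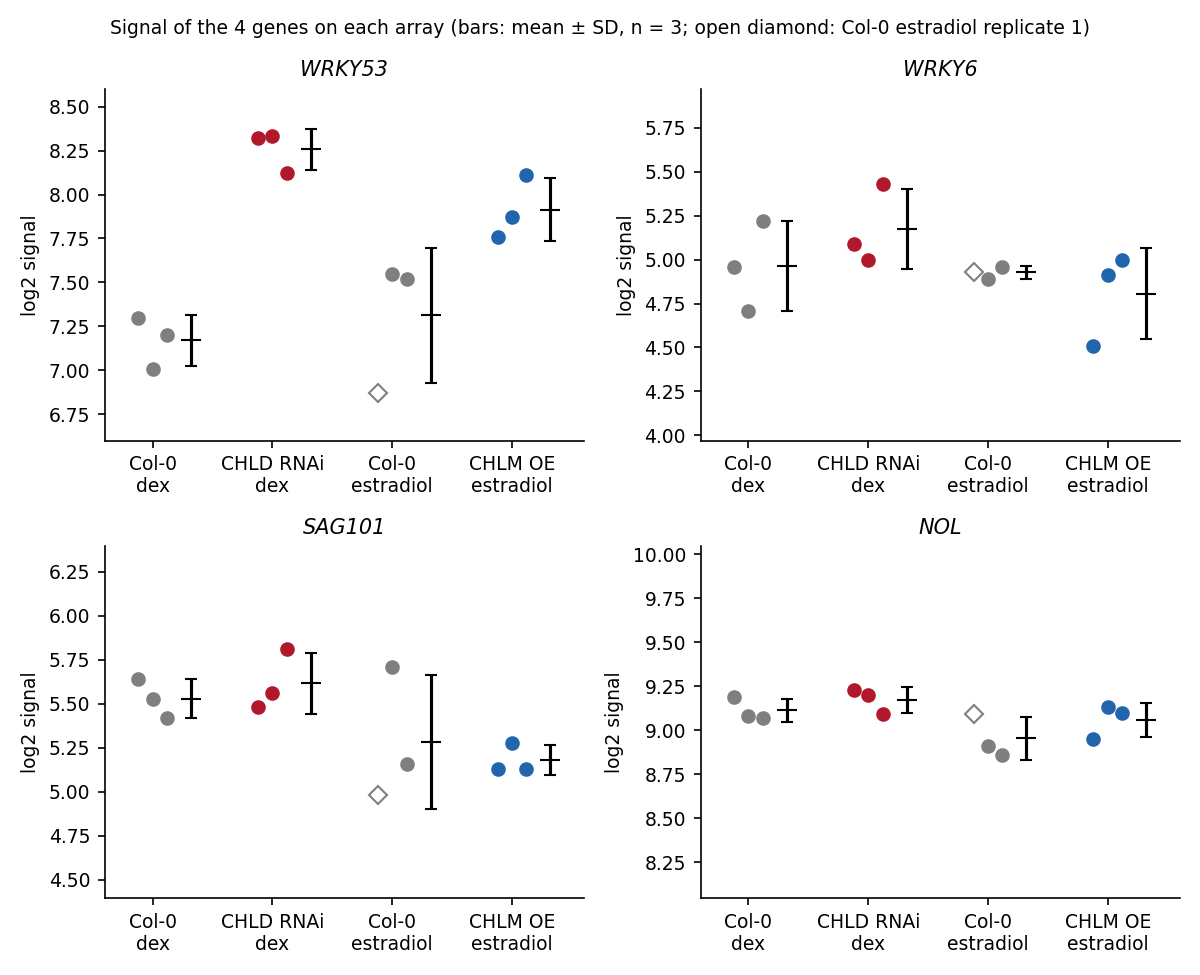
Log2 signal of WRKY53, WRKY6, SAG101 and NOL on each of the 12 arrays, by group, with points for replicates 1 to 3 from left to right, an open diamond for Col-0 estradiol replicate 1, and bars for mean ± SD (n = 3). Each panel spans 2 log2 units: WRKY53 stands higher in both lines than in their Col-0 groups, and the groups of the other 3 genes overlap.

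The Col-0 groups were compared to see how far the inducer, or the set of plants treated with it, moved the genes in the controls alone. WRKY53 was at 7.17 ± 0.15 under dexamethasone and 7.31 ± 0.38 under estradiol (SD, n = 3), a log2 difference of -0.14 (SE 0.16) that was not past the threshold (limma adjusted p = 0.824). None of the 4 genes passed in this comparison, by limma or by a linear model without moderation, and 0 of 4 had an unadjusted p under 0.05. Over all probe sets 0.0484% passed the adjusted threshold, and the share with an unadjusted p under 0.05 was not counted. Without Col-0 estradiol replicate 1, Col-0 under dexamethasone stood 0.37 lower for WRKY53 on the log2 scale (difference -0.365, SE 0.122, limma adjusted p = 0.127), and 3.2% of all probe sets passed.

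The size of the WRKY53 response was then compared between the lines, as the CHLM effect minus the CHLD effect. The effect was smaller by 0.49 on the log2 scale in the CHLM line (difference -0.49, SE 0.226, 95% interval -0.97 to -0.002), which was not past the threshold after adjustment (limma adjusted p = 0.523, unadjusted p = 0.0491). None of the 4 genes passed this test, by limma or by a linear model without moderation, and 1 of 4, WRKY53, had an unadjusted p under 0.05. Over all probe sets 1.13% passed the adjusted threshold, and the share with an unadjusted p under 0.05 was not counted. Without Col-0 estradiol replicate 1 the difference was -0.71 (SE 0.164, limma adjusted p = 0.0361) and WRKY53 passed, where 2.16% of all probe sets did. With any other single array left out it stayed between -0.59 and -0.37 and was not past the threshold. The call on this difference thus turned on that 1 Col-0 array.

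**Figure D2:**
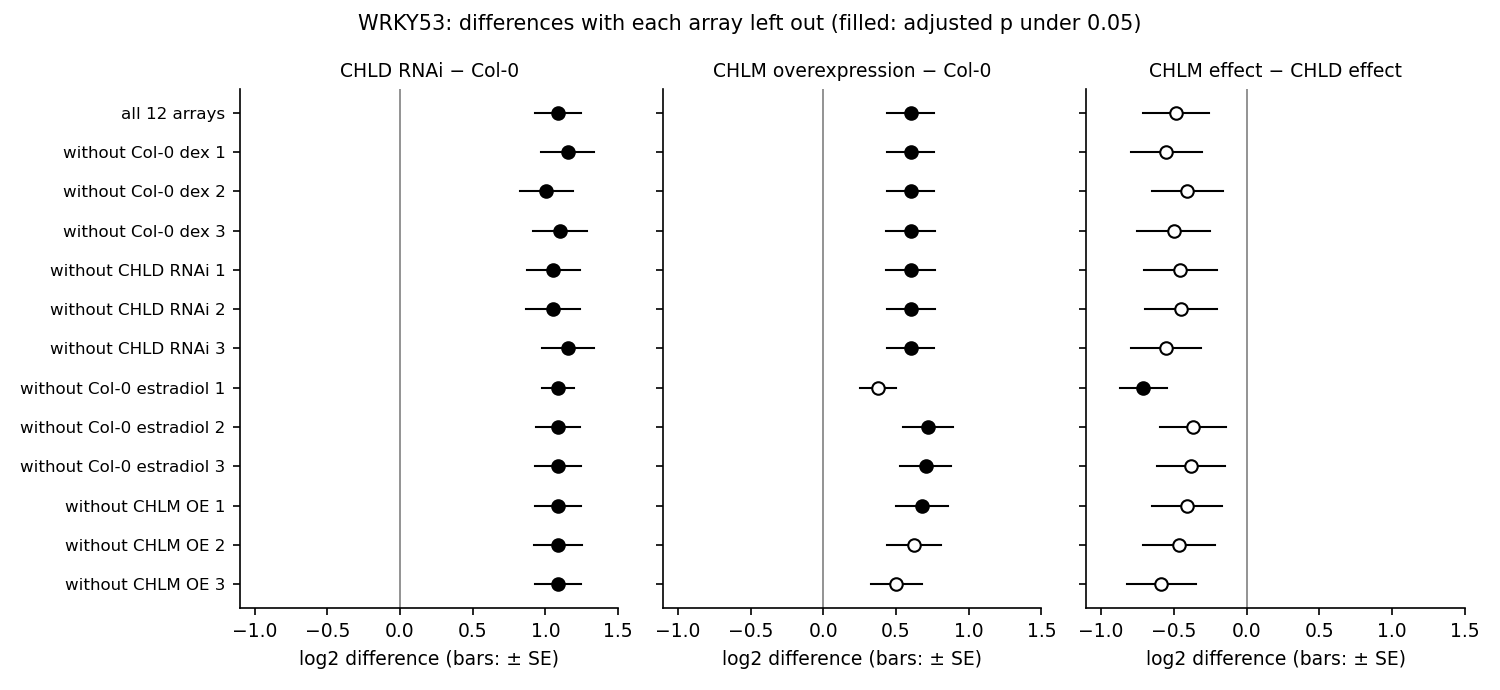
Log2 differences of WRKY53 with all 12 arrays and with each array left out, for the CHLD RNAi line, the CHLM overexpression line and the difference between their effects. Points are limma estimates, bars are ± SE, and filled points have an adjusted p under 0.05: the CHLD effect is filled in every row, while the CHLM effect falls to 0.38 and the difference between the effects moves to -0.71 without Col-0 estradiol replicate 1.

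By group mean WRKY53 ordered as CHLD RNAi (8.26), CHLM overexpression (7.91), Col-0 under estradiol (7.31) and Col-0 under dexamethasone (7.17). The lines ran from 8.12 to 8.33 and from 7.76 to 8.11, so that their nearest arrays all but met. They were given different inducers and were not tested against each other. How many of all probe sets were without overlap between the lines was not counted. The Col-0 groups overlapped, at 6.87 to 7.55 and 7.01 to 7.30. The residual SD of WRKY53 over the 4 groups was 0.232, and 91.8% of probe sets had a smaller one, with a median of 0.134. The groups differed in this: the SD was 0.38 in Col-0 under estradiol, where replicate 1 stood at 6.87. It was 0.15 in Col-0 under dexamethasone, 0.12 in the CHLD RNAi line and 0.18 in the CHLM overexpression line.

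WRKY6, the other transcription factor gene, did not follow WRKY53. Its log2 signal was 5.09, 5.0 and 5.43 in the CHLD RNAi line against 4.96, 4.71 and 5.22 in Col-0 under dexamethasone, and the groups overlapped. The log2 difference was 0.21 (SE 0.151, 95% interval -0.11 to 0.53, limma adjusted p = 0.429), so that a rise of up to 1.45-fold lay within the interval. In the CHLM overexpression line it was 4.51, 4.91 and 5.0 against 4.93, 4.89 and 4.96 in Col-0 under estradiol, with the lowest array of all 12 in the line. That difference was -0.12 (SE 0.151, 95% interval -0.44 to 0.20, limma adjusted p = 0.684). The difference between the effects was -0.33 (SE 0.213, limma adjusted p = 0.719), and the Col-0 groups differed by 0.04 (SE 0.151). WRKY6 lay below the array median on all 12 arrays, at 4.51 to 5.43.

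SAG101, the immune and senescence gene, was likewise not past the threshold in any comparison. Its log2 signal was 5.48, 5.56 and 5.81 in the CHLD RNAi line against 5.64, 5.53 and 5.42 in Col-0 under dexamethasone (log2 difference 0.09, SE 0.153, 95% interval -0.24 to 0.42, limma adjusted p = 0.792). The groups overlapped. In the CHLM overexpression line it was 5.13, 5.28 and 5.13 against 4.98, 5.71 and 5.16 in Col-0 under estradiol (-0.10, SE 0.153, 95% interval -0.43 to 0.23, limma adjusted p = 0.741). All 3 line arrays fell inside the range of Col-0, which was the widest of any group for this gene. Without Col-0 estradiol replicate 1, the lowest array, the CHLM difference was -0.26 (SE 0.146, limma adjusted p = 0.343), and without replicate 2, the highest, it was 0.11. By mean the dexamethasone groups stood higher, at 5.62 and 5.53 against 5.28 and 5.18, but the difference between the Col-0 groups, 0.25 (SE 0.153), was not past the threshold (limma adjusted p = 0.618). SAG101 also lay below the array median on all 12 arrays.

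NOL, the chlorophyll b reductase gene, varied least. Over the 12 arrays it ranged from 8.86 to 9.23, a span of 0.37 against 1.46 for WRKY53, 0.92 for WRKY6 and 0.83 for SAG101. Its residual SD was 0.0919, and 15% of probe sets had a smaller one. Its log2 signal was 9.23, 9.20 and 9.09 in the CHLD RNAi line against 9.19, 9.08 and 9.07 in Col-0 under dexamethasone. That is a difference of 0.06 (SE 0.091, 95% interval -0.14 to 0.26, limma adjusted p = 0.752), and the groups overlapped. In the CHLM overexpression line it was 8.95, 9.13 and 9.10 against 9.09, 8.91 and 8.86 in Col-0 under estradiol (0.11, SE 0.091, 95% interval -0.09 to 0.30, limma adjusted p = 0.518). The intervals limit a rise of NOL to 1.19-fold in the CHLD line and 1.23-fold in the CHLM line, and a fall to 0.911 and 0.940 of the Col-0 level. Between the Col-0 groups NOL differed by 0.16 (SE 0.091, limma adjusted p = 0.574).

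The rest of the senescence and chlorophyll breakdown pathway was read from lists of senescence regulators, senescence-associated genes, chlorophyll breakdown enzymes, the EDS1 module, genes of peroxide and singlet oxygen response and the WRKY family. Apart from the 4 genes these lists held 85 genes, of which 10 had a probe set with a single gene in the annotation used here. The WRKY list held only genes with such a probe set, and without it 7 of 82 genes were measured. Most of the pathway was therefore not read, among it NYC1, SGR1, PPH, PAO, SAG12 and ORE1. In the CHLD RNAi line 0 of the 10 rose and 1 fell, with a median log2 difference of 0.05 against -0.01 over all probe sets. In the CHLM overexpression line 1 rose and 0 fell, with a median of -0.09 against 0.02. So the listed genes passed at a share near the 12.4% and 9.75% of all probe sets. Between the Col-0 groups and between the line effects 0 of 10 passed in limma, and 0 of 10 without moderation. An unadjusted p under 0.05 was seen in 2 and 0 of them, and the share of all probe sets at that level was not counted. Without Col-0 estradiol replicate 1, 1 of the 10, EIN3, passed between the Col-0 groups, where 3.2% of all probe sets did.

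Among the senescence regulators EIN3, the transcription factor of ethylene signalling that promotes leaf ageing, fell in the CHLD RNAi line. It was at 9.25, 9.15 and 9.28 against 9.66, 9.67 and 9.58 in Col-0 under dexamethasone, with no overlap. The fall was 1.33-fold (log2 difference -0.41, SE 0.105, limma adjusted p = 0.0202), so EIN3 and WRKY53 moved in opposite directions in this line. Leaving out the first or the second Col-0 dexamethasone array, or the second array of the line, ended this call (limma adjusted p = 0.0662, 0.0728 and 0.0762). Under estradiol EIN3 was at 9.07, 9.06 and 8.96 in the CHLM line against 9.63, 9.22 and 9.26 in Col-0, again without overlap but not past the threshold (-0.34, SE 0.105, limma adjusted p = 0.0554). It passed in limma without Col-0 estradiol replicate 2 (-0.42, adjusted p = 0.0441), and without replicate 1, the array at 9.63, it was -0.21 (adjusted p = 0.201). Between the Col-0 groups EIN3 stood 0.27 higher under dexamethasone (SE 0.105, limma adjusted p = 0.374), and without replicate 1 it stood 0.40 higher and passed (SE 0.0925, limma adjusted p = 0.0309).

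SAG29, which encodes the sugar transporter SWEET15 and is named for its rise in senescing leaves, depended on the same Col-0 array. It was at 5.50, 5.60 and 5.83 in the CHLM line against 6.38, 4.70 and 4.80 in Col-0 under estradiol. The line lay between replicate 1 and the other Col-0 arrays. With all arrays the difference was 0.35 (SE 0.311, limma adjusted p = 0.539). Without Col-0 estradiol replicate 1 it was 0.89, or 1.86-fold (SE 0.129, limma adjusted p = 0.00108), where 6.60% of all probe sets passed. In the CHLD RNAi line SAG29 was at 4.92, 5.27 and 4.89 against 4.72, 4.89 and 4.78 (0.23, SE 0.311, limma adjusted p = 0.72). That SE came from the spread shared by all groups, with the array at 6.38 among them. Without Col-0 estradiol replicate 1 the SE was 0.116, and the difference of 0.23 was still not past the threshold (limma adjusted p = 0.209).

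In the chlorophyll breakdown list 2 loci besides NOL were measured, AT1G44000 and AT5G38520, which have no gene symbol in the annotation used here. AT1G44000 rose 1.36-fold in the CHLM overexpression line, to 10.16, 10.25 and 10.52 from 9.90, 9.96 and 9.73 (log2 difference 0.45, SE 0.116, limma adjusted p = 0.0282). This call was lost without Col-0 estradiol replicate 3 or CHLM replicate 2 or 3 (adjusted p = 0.0923, 0.0515 and 0.0944 in limma). In the CHLD RNAi line it was at 10.37, 10.05 and 10.03 against 9.92, 9.84 and 9.94, without overlap but not past the threshold (0.25, SE 0.116, limma adjusted p = 0.189). AT5G38520 differed by 0.13 in the CHLD line and 0.07 in the CHLM line (SE 0.105 for each), with adjusted p = 0.492 and 0.758 in limma.

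Of the WRKY family only genes with a probe set annotated to them alone could be read, and the 4 besides WRKY53 and WRKY6 gave no call. WRKY45, WRKY54, WRKY57, WRKY70 and WRKY75, also on the list of senescence regulators, had no such probe set. WRKY20, WRKY22, WRKY42 and WRKY47 differed by -0.10 to 0.05 in the CHLD RNAi line and by -0.20 to -0.02 in the CHLM overexpression line. The smallest p among them was that of WRKY22 in both lines (limma adjusted p = 0.655 and 0.272). The loci AT3G48080 of the EDS1 list and AT3G28580 of the oxygen response list, also without a symbol here, were at log2 signals of 2.87 to 3.47 and 2.54 to 3.05, near the lowest value of the table, 2.39. Neither passed in either line. Among the 14 measured genes WRKY53 alone passed in both lines with all arrays, and its CHLM call was lost in 3 of 12 fits with an array left out. The share of all probe sets that passed in both lines was not counted.

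**Figure D3:**
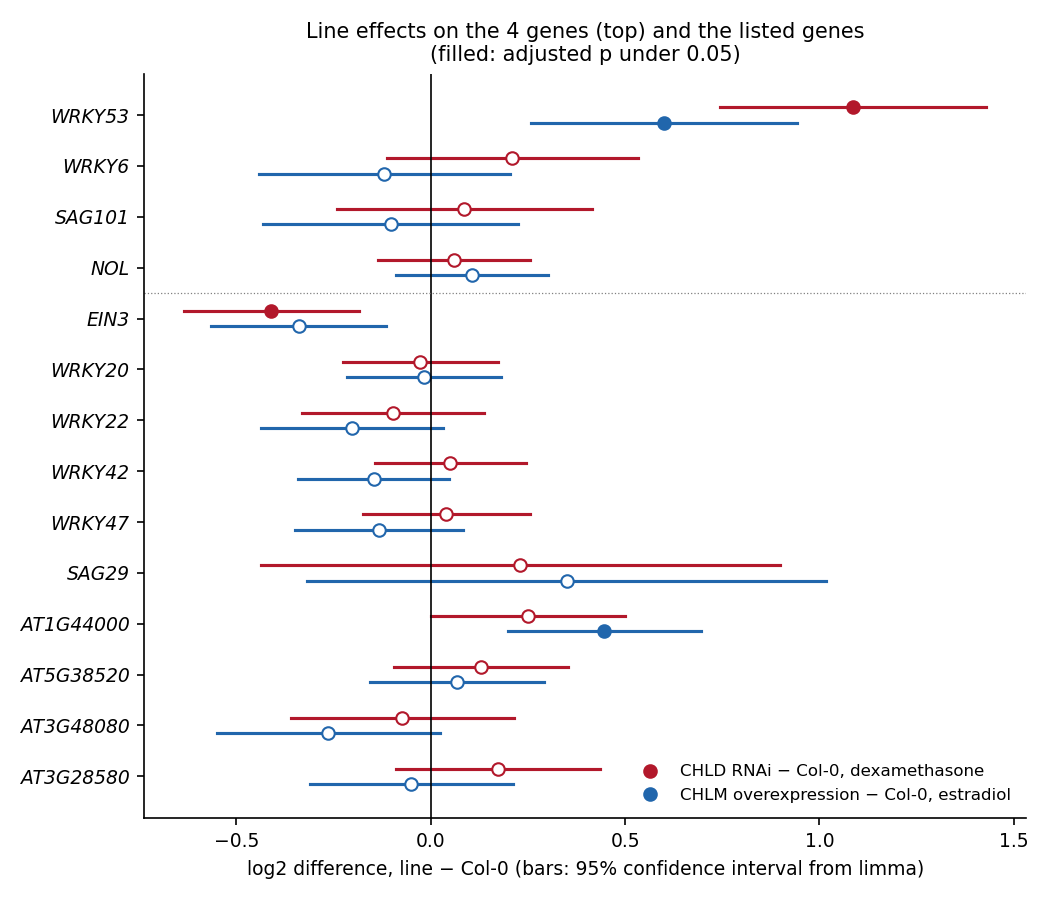
Log2 differences between each line and Col-0 given the same inducer for the 4 genes (above the dotted line) and the 10 further listed genes, with 95% confidence intervals from limma. Filled points have an adjusted p under 0.05: WRKY53 in both lines, EIN3 in the CHLD RNAi line and AT1G44000 in the CHLM overexpression line.

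**Figure D4:**
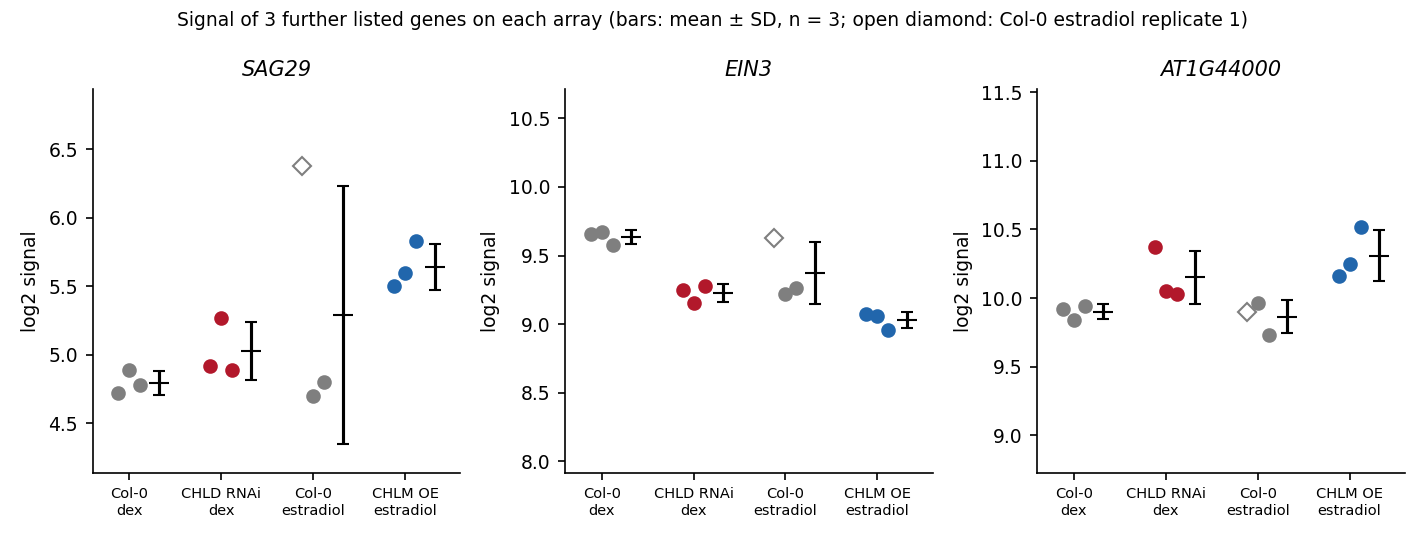
Log2 signal of SAG29, EIN3 and AT1G44000 on each array, by group, with points for replicates 1 to 3, an open diamond for Col-0 estradiol replicate 1, and bars for mean ± SD (n = 3). The diamond of SAG29 stands at 6.38, above all 11 other arrays, and that of EIN3 at 9.63 among the Col-0 dexamethasone arrays.

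Col-0 estradiol replicate 1 moved the 4 genes unequally. Against the mean of replicates 2 and 3 it was lower by 0.67 for WRKY53 (-0.665) and lower by 0.46 for SAG101 (-0.455), higher by 0.21 for NOL (0.205), and at 0.005 for WRKY6. It was 1.63 higher for SAG29 and 0.39 higher for EIN3. The labels give no reason for this array to differ.

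The genes with the most similar pattern over the 12 arrays were taken by Pearson's r among the 13512 other probe sets with a single gene, as a description with no test. For WRKY53 they were AT5G28630, AT1G79770 and AT1G77670, each at r = 0.94, and 29 probe sets had r over 0.9. Since they were picked for following WRKY53 on these arrays, their differences follow from the choice and were not tested. The log2 differences in the CHLD and the CHLM line were 0.62 and 0.52 for AT5G28630, 0.98 and 0.56 for AT1G79770, and 0.68 and 0.43 for AT1G77670. For NOL the most similar were AT5G02230, AT4G23330 and AT1G51350 (r = 0.94, 0.92 and 0.90), and 3 probe sets had r over 0.9. For SAG101 they were UGT76E1, a glycosyltransferase gene, AT1G32530 and OPCL1, a CoA ligase gene of jasmonate synthesis (r = 0.90, 0.88 and 0.87). For WRKY6 they were AT3G29640, AT5G59490 and AT2G04230 (r = 0.87, 0.84 and 0.84), and 0 probe sets had r over 0.9. The log2 signal of AT3G29640 was 2.70 to 3.07, near the lowest value of all, 2.39, and that of UGT76E1 was also low, at 3.36 to 3.81. Col-0 estradiol replicate 1 was among the 12 arrays, and r was not computed without it.

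**Figure D5:**
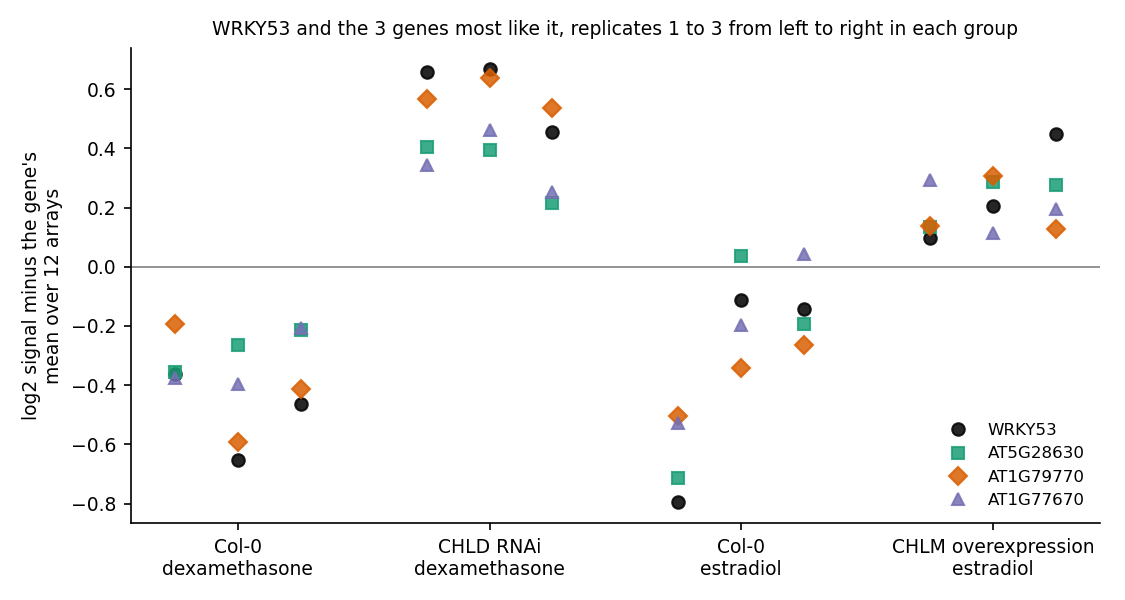
Log2 signal of WRKY53 and of the 3 genes most like it over the 12 arrays, each minus its own mean over the arrays, with replicates 1 to 3 from left to right in each group. The 3 genes were picked by their correlation with WRKY53 on these arrays, so the shared pattern, above the mean on the 6 arrays of the lines, follows from the choice.

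Markers of single cell types could move with these results. Of 12 listed markers of mesophyll, guard cells, epidermis and phloem 2 had a named probe set, and none of the mesophyll or epidermis list did. FMA, a regulator of guard cell formation, was at 5.79 to 6.12 in the CHLD RNAi line and 6.18 to 6.40 in its Col-0 group, a fall of 0.38 on the log2 scale (difference -0.38, SE 0.109, limma adjusted p = 0.0361). That call was lost without replicate 2 or 3 of either group (limma adjusted p = 0.0896 to 0.141). SWEET11, a sucrose transporter gene of phloem parenchyma, was at 10.80 to 10.96 in the CHLM line and 11.19 to 11.23 in its Col-0 group (-0.35, SE 0.1, limma adjusted p = 0.0418). Its call was lost in 7 of the 12 fits with an array left out, among them the one without Col-0 estradiol replicate 1 (-0.34, limma adjusted p = 0.0921). In the other line FMA differed by -0.22 and SWEET11 by 0.13, neither past the threshold. The green tissue genes moved as well: psbA, for the D1 protein of photosystem II, fell by 0.75 and by 0.57 in the CHLD and the CHLM line (SE 0.108, limma adjusted p = 5.63e-04 and 0.00664). rbcL, for the large subunit of Rubisco, rose by 0.51 and 0.50 (SE 0.108, limma adjusted p = 0.00736 and 0.0122). The part of these shifts in the WRKY53 result was not tested.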

How the data were processed

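The authors deposited log2 signals, 1 column per array, and the submitters' processing notes name Affymetrix Expression Console. Its version, summary method and normalization, and the log base, are not given in the sources used here. A base of 2 was assumed, since values ran from 2.39 to 14.49. They were used as deposited. All 12 columns were used. Of 22809 probe sets 63 controls were left out. The probe annotation gave 1 gene to 13513 probe sets, and symbols are from RefSeq (TAIR10.1).

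A linear model with a mean for each of the 4 groups was fitted to the 12 arrays in limma 3.58.1 (R 4.3.3), with moderated two-sided tests (8 residual and 6.05 prior degrees of freedom) and Benjamini-Hochberg adjustment over 22746 probe sets. The number of arrays limits the precision. Each p-value sets a difference against a spread between arrays that is estimated from all 4 groups together. The code of the fit was checked on simulated data with independent normal noise and no outlying array. That check cannot show how the fit handles an array like Col-0 estradiol replicate 1. Alternatives were a replicate block, each array left out, the compared groups alone, trend and robust moderation, no moderation, quantile and median scaling, a filter on dim probe sets, and an exact permutation test.

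Members and lists were chosen with earlier results of these data known. From each list up to 4 genes past the threshold per line were named, or the one with the smallest p, and 3 genes most like each member.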

Additional observations from a re-analysis of the deposited data

How the results depend on the processing

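The rise of WRKY53 in the CHLD RNAi line kept its call under every model setting and with each array left out. An exact permutation test of 3 against 3 arrays cannot go below p = 0.1, and gave 0.1 for the differences of 1.09 (CHLD) and 0.60 (CHLM). The CHLM call ended without moderation (0.60, adjusted p = 0.112 from the plain linear model) and with the spread of the compared groups alone (0.60, limma adjusted p = 0.104), so that 0 of the 4 genes passed. With each array left out it ran from 0.38 to 0.72, with 0 or 1 gene passing. The difference between the line effects ran from -0.71 to -0.37, also with 0 or 1 passing. Replicate numbers did not pair the arrays: deviations of same-numbered arrays were correlated at -0.13 to 0.08. With a replicate block WRKY53 stood at adjusted p = 0.0011 and 0.0377 in limma, and the block changed no call of the 4 genes or of the 10 listed genes, while FMA was lost in the CHLD line (limma adjusted p = 0.0512). Without moderation FMA in the CHLD line and SWEET11 in the CHLM line were lost too (adjusted p = 0.0756 and 0.0738 from the plain linear model), as was SWEET11 with the compared groups alone (limma adjusted p = 0.0682). Signs of differences that were not past the threshold turned with single arrays left out: SAG101 ran from -0.01 to 0.16 in the CHLD line, -0.26 to 0.11 in the CHLM line and -0.34 to 0.023 between the effects, and WRKY6 from -0.22 to 0.028 in the CHLM line and -0.092 to 0.16 between the Col-0 groups. In the CHLD line the ranges were -0.13 to 0.02 for AT3G48080, -0.077 to 0.005 for WRKY20, -0.038 to 0.11 for WRKY42 and -0.018 to 0.14 for WRKY47, and in the CHLM line -0.14 to 0.025 for AT3G28580 and -0.07 to 0.06 for WRKY20, which was at 0.01 with median centring. Of the 10 listed genes 0 or 1 passed in the CHLD line and between the Col-0 groups (EIN3 in both) with an array left out. In the CHLM line 0 to 2 did so, 2 with trend and robust moderation, quantile scaling or the dim filter, and 0 without moderation or with the compared groups alone. WRKY6 and SAG101 have no value under the dim filter. Counts over all probe sets ran from 1563 to 3626 (2822 with all settings as reported) in the CHLD line, 855 to 2390 (2217) in the CHLM line, 0 to 728 (11) between the Col-0 groups and 104 to 492 (256) between the effects. Apart from the CHLM line, the highest count of each was the one without Col-0 estradiol replicate 1. The cause of these changes was not tested.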
